A study of Mus musculus with 9 samples.

Results

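Ribosome-associated RNA of enforced wake with Fxr1 overexpression was compared with that of sleep, to describe which differences between enforced wake and sleep remained when Fxr1 was raised. The comparison holds 6 of the 9 libraries of the study: 3 from GFP-Fxr1 mice in enforced wake and 3 from GFP control mice in sleep. All were from medial prefrontal cortex (mPFC) neurons of adult C57BL/6 mice. The 3 libraries of GFP control mice in enforced wake served to say what a wake difference is and entered no test of the 6. In every group a protein was overexpressed in the mPFC, GFP alone in sleep and in the enforced wake control, and GFP-Fxr1 in the third group. Fxr1 and sleep state therefore differ at the same time between the groups compared, and no library of sleep with Fxr1 was analysed here. The labels name neither the driver of the ribosome tag nor the vector of the overexpression, and they give no length of the enforced wake and no time of day. They do not say whether each replicate was an animal of its own, and p-values then measure only how far these samples spread, technical spread included.

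Fxr1 belongs with Fmr1 and Fxr2 to the fragile X proteins, which bind messenger RNAs at ribosomes and near synapses and regulate their translation and decay. In RiboTag mice a ribosomal protein carries an epitope tag in chosen cells, so that ribosomes and the RNA bound to them can be pulled down from those cells. During wakefulness cortical neurons are known to switch on activity-induced genes, chaperones of the endoplasmic reticulum and several clock genes, while the transcripts of cold-inducible RNA-binding proteins are low, and much of this returns with sleep.

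Gene values are the sums of the deposited transcript FPKM (fragments mapped to a transcript, scaled by its length and by the library's total) by gene symbol. A difference is given on the log2(FPKM + 1) scale, as wake with Fxr1 minus sleep, from limma on the 6 libraries with Benjamini-Hochberg adjustment over the 14562 genes whose mean over these libraries reached 0.5 FPKM; a gene rose or fell if its adjusted p was under 0.05. From the steps between low values, depth was estimated at 29900000 to 37300000 fragments a library, and total FPKM lay between 309832 and 358936. Fxr1 library 1 stood apart: on the first principal component of the 9 libraries, with 56.3% of the variance, it scored 63.1, while the other 8 lay between -30.6 and 13.1. The Pearson r between replicates, across genes, was 0.981 to 0.985 in sleep and 0.948 to 0.985 in wake with Fxr1. Deviations from the mean of the 9 libraries were lower for GC-rich genes in the Fxr1 libraries (Spearman correlation across genes -0.789, -0.397 and -0.245), which was 0.25, -0.378 and 0.171 in sleep and 0.635 to 0.709 in enforced wake with GFP. In the same way the median difference of wake with Fxr1 from sleep went from 0.108 in the fifth of genes lowest in GC content to -0.342 in the highest, and from 0.0142 to -0.144 without Fxr1 library 1. Counts are therefore also given without that library and after removal of a trend on GC content and length (the GC trend).

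The sample type was checked against its markers. Markers of excitatory neurons summed to 654.8 to 730.7 FPKM in sleep and to 517 to 696.3 in wake with Fxr1, and those of inhibitory neurons to 493.9 to 575.3 and 502.9 to 542. Markers of other cells were not absent: the 15 astrocyte markers summed to 592.9 to 662 and 536.7 to 618 FPKM, 15 oligodendrocyte markers to 116.1 to 180.5 and 149.8 to 169.8, and 15 microglia markers to 45.64 to 74.87 and 46.46 to 56.82. No marker of these lists was at 0 in all 9 libraries. Sums of several genes differ between lists by the genes chosen, so they do not give the shares of the cells.

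Of 14562 genes, 183 (1.26%) differed between wake with Fxr1 and sleep: 107 rose (0.735%) and 76 fell (0.522%); at an unadjusted p under 0.05, 3140 differed. In enforced wake with GFP 4156 of 14673 genes (28.3%) had differed from the same sleep libraries, 2298 higher (15.7%) and 1858 lower (12.7%). Of these wake differences 157 remained with Fxr1, that is, passed again in the same direction, 98 higher and 59 lower; none passed in the opposite direction, 3942 did not pass and 57 were below the minimum FPKM. The 157 are 85.8% of the genes that passed with Fxr1 and 3.78% of the wake differences, and both comparisons share the 3 sleep libraries. The other 26 genes that passed with Fxr1, 9 higher and 17 lower, were no wake differences. A wake difference that did not pass with Fxr1 was not shown to be lost: enforced wake with Fxr1 differed from enforced wake with GFP, tested directly, in 60 of 14563 genes (0.412%; 0.0824% higher and 0.33% lower), 32 of them wake differences, and 31 of these lay on the side towards sleep. The GFP libraries of enforced wake defined the wake differences and were also the other side of this direct test. A position towards sleep is therefore in part built in. With the GC trend removed 15 of the 32 still passed, and of the 25 also tested against sleep, 10 lay beyond the sleep libraries on the side away from wake, without overlap.

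Few replicates carry these counts. The number of genes that passed was 372 without Fxr1 library 1 (2.55%, with 1.34% higher and 1.21% lower; 308 remaining), 864 with the GC trend removed (5.93%, with 3.63% higher and 2.3% lower; 677 remaining) and 1153 with all 9 libraries in 1 fit (477 remaining), but 0 without any 1 of the 3 sleep libraries or without Fxr1 library 2, and 9 without Fxr1 library 3. In each of these fits 181 to 183 of the 183 genes kept their sign, and at an unadjusted p under 0.05 without a sleep library 1775 to 2353 genes passed. The 183 genes were chosen on these same libraries, which each fit reuses, so the kept signs are no independent support.

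The labels were checked on Fxr1 itself. Fxr1 (ENSMUSG00000027680; chromosome 3, 34019943 to 34070322, GRCm38) had 31.7, 34.8 and 31 FPKM in sleep and 91.1, 67.7 and 71.8 in wake with Fxr1. The groups did not overlap, and Fxr1 rose by 1.21 (SE 0.129, limma adjusted p = 0.0209), while the enforced wake control had 34.8, 33.9 and 31.1 FPKM. The rise passed in the protein-coding transcripts Fxr1-204 (mean 2.49 to 13.1 FPKM) and Fxr1-201 (10.7 to 21.3). The protein-coding Fxr1-208, with higher means, went from 18.4 to 39.1 FPKM, a difference of 1.04 that did not pass (limma adjusted p = 0.156). For the relatives Fmr1 and Fxr2 differences of 0.28 and -0.28 did not pass (limma adjusted p = 0.277 and 0.338). The values do not tell endogenous Fxr1 RNA from that of the overexpressed GFP-Fxr1.

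Activity-induced transcription factors were one group in which wake differences remained. Of 22 measured, 18 had risen in enforced wake with GFP, where 15.7% of all genes had risen. With Fxr1 6 rose (27.3% of the list against 0.735% of all genes), all 6 of them wake differences: Egr2, Fosl2, Nfil3, Egr1, Klf10 and Ier5. The median of the list was 0.472, against -0.0869 over all genes, and 9 rose with the GC trend removed and 7 without Fxr1 library 1. Over all genes 3.63% and 1.34% rose in these settings. Egr2 (chromosome 10, 67535475 to 67542188), a zinc finger transcription factor induced by synaptic activity, had 0.663, 0.51 and 0.524 FPKM in sleep and 4.26, 4.11 and 3.75 in wake with Fxr1. Every Fxr1 library was above every sleep library, and Egr2 rose by 1.69 (SE 0.0954, limma adjusted p = 0.0143). In enforced wake with GFP it had 1.33, 6.12 and 6.21 FPKM, so 1 control library lay apart from the other two. Egr1, a relative of Egr2, had 23.6, 21.3 and 20.3 FPKM in sleep and 40.5, 45.4 and 40.2 with Fxr1. It rose by 0.92 (limma adjusted p = 0.0198). Fosl2, a partner in AP-1 dimers, had 5.14, 3.14 and 4.01 FPKM in sleep and 9.44, 10.5 and 9.61 with Fxr1, a rise of 1.11 (limma adjusted p = 0.039). Klf10, a zinc finger repressor, went from 17.8 to 19.9 FPKM in sleep to 34.1 to 34.7 with Fxr1, next to 34.3 to 36 in enforced wake with GFP. Its rise of 0.84 (limma adjusted p = 0.0198) had nearly the size of its rise in the control, 0.87.

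Other activity-induced transcription factors gave no such result. Fos, the AP-1 subunit most used as a mark of activity, had 6.62, 7.11 and 3.65 FPKM in sleep, 14.3, 14.8 and 13.5 with Fxr1 and 25.1, 24.4 and 22.1 in enforced wake with GFP. With Fxr1 it lay between both, above every sleep library and below every wake library; its difference from sleep of 1.20 did not pass (limma adjusted p = 0.0648; 0.0281 with the GC trend removed), but that from enforced wake with GFP of -0.71 did (limma adjusted p = 0.0443; 0.105 with the GC trend removed). Junb, another AP-1 subunit, had 4.04, 2.06 and 2.97 FPKM in sleep, 1.19, 2.6 and 3.38 with Fxr1 and 13, 14.3 and 13.9 in enforced wake with GFP. The Fxr1 and sleep libraries overlapped (difference -0.27, 95% interval -0.99 to 0.44, limma adjusted p = 0.583). Against enforced wake with GFP Junb was lower by a log2 difference of -2.18 (limma adjusted p = 0.0375), and by -1.31 with the GC trend removed. Fosb and the nuclear receptor Nr4a1 had differences from sleep of 1.17 and 0.91 that did not pass (limma adjusted p = 0.114 and 0.144; 0.0104 and 0.0224 with the GC trend removed).

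Activity-induced effectors, here growth factors, synaptic proteins and signalling enzymes, were the next group. Of 32 measured 27 had risen in enforced wake with GFP and 11 rose with Fxr1, all 11 of them wake differences, with a median of 0.442 over the list. Over all genes 15.7% had risen with GFP and 0.735% rose with Fxr1. With the GC trend removed 22 rose, and 15 without Fxr1 library 1, against 3.63% and 1.34% of all genes. Ptgs2, the inducible cyclooxygenase of prostaglandin synthesis (chromosome 1, 150100031 to 150108227), had 5.76, 5.13 and 5.28 FPKM in sleep and 20.7, 16.9 and 17.6 with Fxr1, with 12.7, 14.2 and 12 in enforced wake with GFP. It rose by 1.60 (SE 0.109, limma adjusted p = 0.0153); the Fxr1 libraries were also above the wake libraries, a difference of 0.48 that did not pass (limma adjusted p = 0.0878). Bdnf, the brain-derived neurotrophic factor, had 12.7, 11.6 and 12.3 FPKM in sleep and 33.7, 30.1 and 28.1 with Fxr1, close to 27, 30.7 and 25.9 in enforced wake with GFP. Its rise was 1.26 (SE 0.0975, limma adjusted p = 0.0153). Homer1, a scaffold of the postsynaptic density that ties metabotropic glutamate receptors to their partners, had 102, 117 and 109 FPKM in sleep and 284, 233 and 225 with Fxr1. It rose by 1.17 (SE 0.116, limma adjusted p = 0.0198), and enforced wake with GFP lay between, at 184 to 200 FPKM. Inhba, the activin subunit, rose from 1.34 to 1.54 FPKM to 4.37 to 6.36 (1.39, limma adjusted p = 0.0198). Rasd1, a small GTPase, had 1.09, 0.705 and 0.932 FPKM in sleep and 3.13, 5.1 and 5.51 with Fxr1, with the lowest of the 3 in library 1 (1.52, limma adjusted p = 0.0319).

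The remaining effectors were of several kinds. The phosphatases of MAP kinases Dusp4 and Dusp6 rose by 1.17 and 0.86 (limma adjusted p = 0.0198 for both), the salt-inducible kinase Sik1 by 0.74 (limma adjusted p = 0.0385) and Tiparp by 1.18 (limma adjusted p = 0.031). Scg2, a protein of dense-core vesicles, had 168, 146 and 142 FPKM in sleep and 273, 266 and 229 with Fxr1, and rose by 0.75 (limma adjusted p = 0.0427). Pcsk1, the convertase that cleaves prohormones in those vesicles, had 24.5, 26.1 and 25.6 FPKM in sleep and 55.3, 49.5 and 42.3 with Fxr1, and rose by 0.91 (limma adjusted p = 0.0309). Arc, a synaptic immediate early gene with a large rise in enforced wake with GFP, was the exception in spread: 14, 9.04 and 9.58 FPKM in sleep, 14.8, 49.5 and 56.8 with Fxr1 and 99.2, 97.5 and 107 in enforced wake with GFP. Fxr1 library 1 lay just above sleep and the other two in the middle, and the difference of 1.62 (SE 0.496) did not pass (limma adjusted p = 0.152). It passed without library 1 (2.21, limma adjusted p = 0.0164) and with the GC trend removed (1.99, limma adjusted p = 0.022). The pentraxin Nptx2, which clusters AMPA receptors, had a difference of 1.13 (limma adjusted p = 0.0722; 0.00354 with the GC trend removed).

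**Figure D1:**
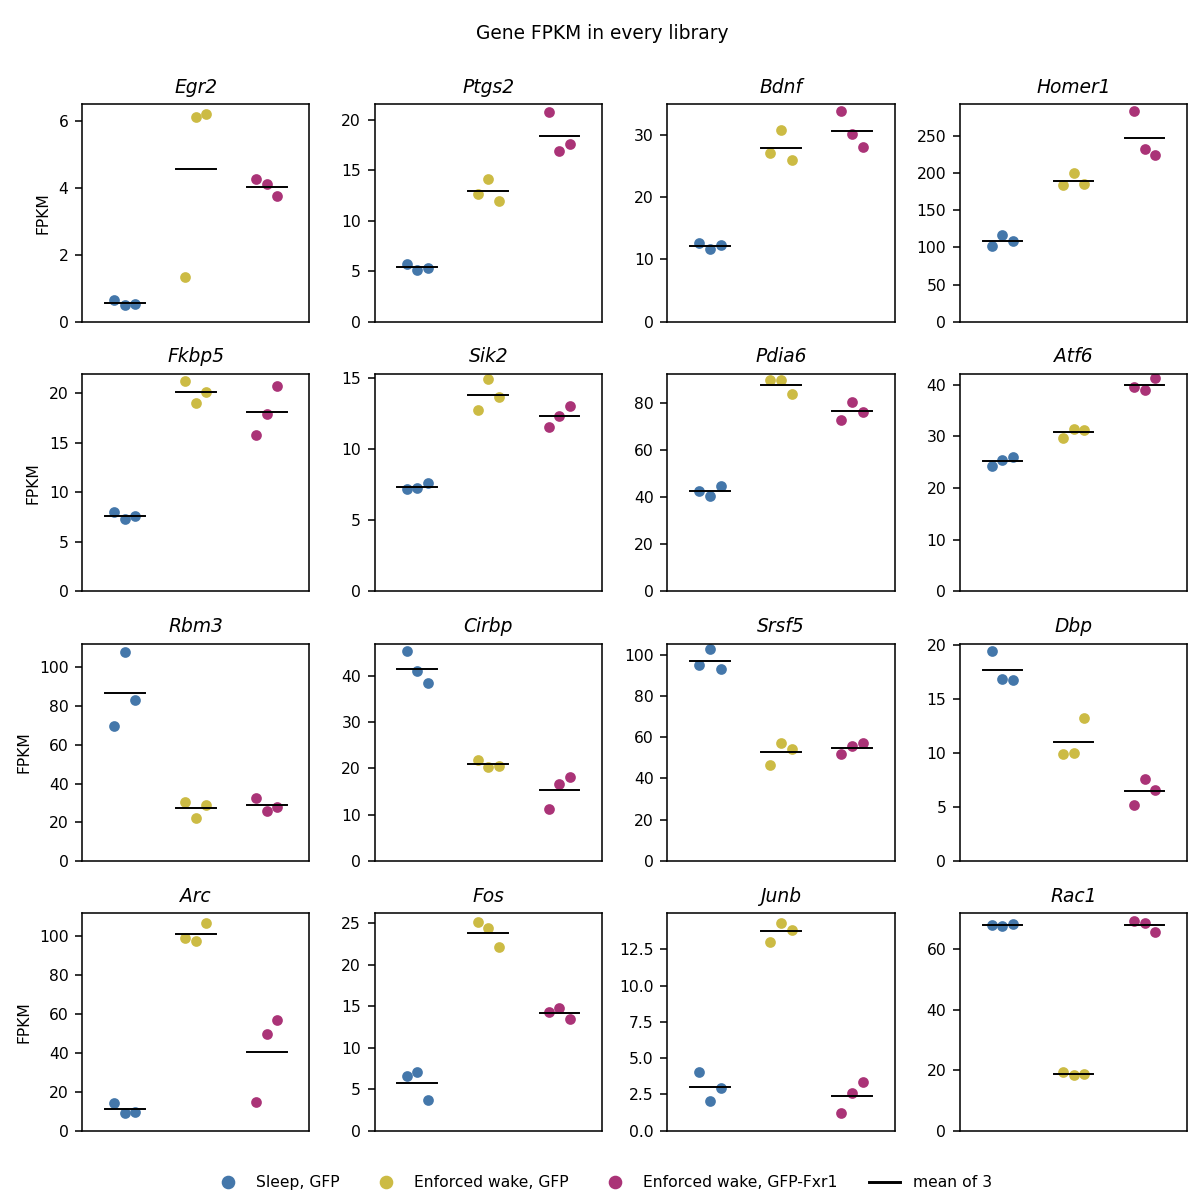
FPKM of 16 genes in every library (points; 3 each of sleep with GFP, enforced wake with GFP and enforced wake with GFP-Fxr1), with the mean of each group as a line and axes that start at 0. From Egr2 to Dbp the Fxr1 libraries sit away from the sleep libraries without overlap; Junb and Rac1 sit at the sleep level with Fxr1, and Fos and Arc in between.

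Single transcripts were tested as well, and 70 of 28447 (0.246%) passed, 32 higher (0.112%) and 38 lower (0.134%), in 62 genes, of which 20 passed as genes. StringTie shares fragments between transcripts with common exons, so a step between transcripts of a gene is an estimate. For Homer1 the rise lay in Homer1-204 (GRCm38 chromosome 13, 93304495 to 93360462), which ends well before the long forms such as Homer1-203 (93304799 to 93403681). The short form had 15.3, 17.3 and 17.6 FPKM in sleep, 148, 109 and 106 with Fxr1 and 85.7, 96.5 and 88.8 in enforced wake with GFP. It rose by 2.77 (limma adjusted p = 0.00693), while for Homer1-203, at 73, 78.9 and 75.2 FPKM in sleep and 105, 95.2 and 93.4 with Fxr1, the difference of 0.37 did not pass (limma adjusted p = 0.236). Short Homer1 lacks the end through which the long forms join into tetramers, and it is known as the activity-induced form. Of 5 Bdnf transcripts that passed the filter, Bdnf-201 (chromosome 2, 109674700 to 109727007), which begins at the first exon of the gene, rose, from 2.91, 3.08 and 2.17 FPKM in sleep to 20.1, 16.9 and 18.5 with Fxr1 (2.39, limma adjusted p = 0.00978). Bdnf-209, which begins further into the gene, had 3.93, 4.23 and 3.35 FPKM in sleep and 8.74, 6.52 and 4.6 with Fxr1, a difference of 0.62 that missed the threshold (limma adjusted p = 0.434).

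**Figure D2:**
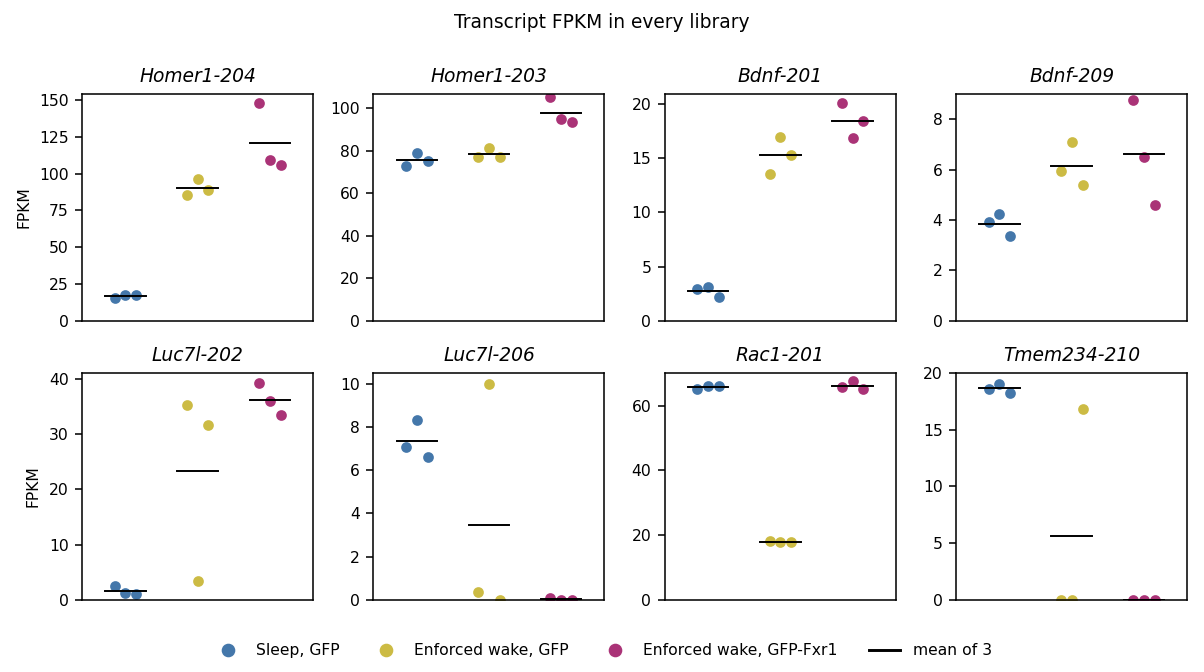
FPKM of 8 transcripts in every library (points), with the mean of each group as a line. Homer1-204 and Bdnf-201 are high in both wake groups while Homer1-203 and Bdnf-209 do not pass with Fxr1; for Luc7l and Tmem234 1 enforced wake control library sits with sleep and the other two with the Fxr1 libraries.

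Promoter letters were read for the activity-induced genes, since the cyclic AMP response element (CRE), TGACGTCA, and its half-site TGACG, which the CRE contains, are the binding letters of CREB, a transcription factor activated by neuronal signalling. In the 250 bases before the RefSeq start (GRCm38.p6, both strands), the half-site stood in 13 of 17 activity-induced transcription factors (76.5%) and in 11 of 23 effectors (47.8%), against 31.3% of the 9815 tested genes whose promoter was at hand. Among the remaining higher genes it stood in 23 of 66 (34.8%) and the full CRE in 3 of 66 (4.55%, against 3.23% of the tested genes), so the remaining genes as a whole were near the background. The 3 with a full CRE were Dio2, Pcsk1 and Scg2, and the first pair is shown with the CRE in capitals, 5′ to 3′ on the strand of the gene: Dio2 as the whole window, Pcsk1 as 30 bases because its window overlaps annotated exons. A Homer1 window and the window before the start of Bdnf-201 follow, with half-sites in capitals: 3 in the first and none in the second. The other Homer1 window of the table held none, and of 7 Bdnf windows 1 held a half-site, that before the start of Bdnf-209. A match describes letters and is no measured binding.
Dio2 (chr12:90739039-90739288, minus strand): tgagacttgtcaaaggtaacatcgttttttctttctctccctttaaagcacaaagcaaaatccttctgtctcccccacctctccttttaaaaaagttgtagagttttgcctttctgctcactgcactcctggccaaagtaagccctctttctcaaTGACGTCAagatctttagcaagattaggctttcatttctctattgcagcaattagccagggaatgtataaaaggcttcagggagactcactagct
Pcsk1 (chr13:75089768-75089797, plus strand): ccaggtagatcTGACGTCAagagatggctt
Homer1 (chr13:93303507-93303756, plus strand): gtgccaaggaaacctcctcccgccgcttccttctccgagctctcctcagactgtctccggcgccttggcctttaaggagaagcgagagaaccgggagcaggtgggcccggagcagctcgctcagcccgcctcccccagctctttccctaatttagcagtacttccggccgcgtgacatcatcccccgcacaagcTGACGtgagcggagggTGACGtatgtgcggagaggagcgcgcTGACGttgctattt
Bdnf (chr2:109674450-109674699, plus strand): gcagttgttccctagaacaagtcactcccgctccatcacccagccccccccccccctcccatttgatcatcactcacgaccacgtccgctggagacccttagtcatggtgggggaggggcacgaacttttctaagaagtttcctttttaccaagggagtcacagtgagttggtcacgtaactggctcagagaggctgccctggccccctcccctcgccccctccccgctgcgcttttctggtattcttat

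Chaperones of the endoplasmic reticulum and genes of the unfolded protein response formed another group. Of 29 measured 21 had risen and 2 had fallen in enforced wake with GFP; 6 rose with Fxr1 and none fell, all 6 of them wake differences (median of the list 0.233). The shares of all genes were 15.7% higher and 12.7% lower with GFP, and 0.735% higher and 0.522% lower with Fxr1. With the GC trend removed 11 rose, and 9 without Fxr1 library 1, against 3.63% and 1.34% of all genes. Pdia6, a disulfide isomerase that also dampens stress signalling, had 42.8, 40.6 and 44.8 FPKM in sleep, 72.9, 80.4 and 76.4 with Fxr1 and 89.8, 90 and 84.1 in enforced wake with GFP. It rose by 0.83 (SE 0.082, limma adjusted p = 0.0198), as did its relative Pdia4 by 0.83 (limma adjusted p = 0.0257). Sdf2l1, a subunit of chaperone complexes, had 4.29, 5.3 and 5.83 FPKM in sleep and 10.6, 12.6 and 10.5 with Fxr1, all below its 17.4 to 18.1 in enforced wake with GFP. Its rise was 0.998 (limma adjusted p = 0.0361), and its difference from enforced wake with GFP, -0.63, did not pass (limma adjusted p = 0.06; -0.04 with the GC trend removed). Atf6, the membrane-bound transcription factor that senses misfolded proteins, had 24.2, 25.4 and 26 FPKM in sleep, 39.6, 38.9 and 41.2 with Fxr1 and 29.6, 31.4 and 31.3 in enforced wake with GFP. It rose by 0.64 (limma adjusted p = 0.0279), and was above the wake libraries by 0.37, which did not pass (limma adjusted p = 0.0878). Manf, a secreted protein of the stressed reticulum, and the co-chaperone Dnajc3 rose by 0.75 and 0.73 (limma adjusted p = 0.0361 and 0.039). Hspa5, the main chaperone of the lumen, had 76.6, 65 and 94.9 FPKM in sleep and 186, 129 and 111 with Fxr1, without overlap, but its difference of 0.82 missed the threshold (limma adjusted p = 0.127).

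The endoplasmic reticulum stress element (ERSE), CCAAT followed after 9 bases of any kind by CCACG, to which Atf6 and its partner NF-Y bind, was searched in the same 250-base windows on both strands. It stood in 8 of the 25 genes of this list whose promoter was at hand (32%): Calr, Canx, Creld2, Dnajc3, Hsp90b1, Hspa5, Pdia6 and Syvn1. The element was found for 15 of 9815 tested genes (0.153%), and in 0.113% of all 32851 promoters. Among the remaining higher genes it stood in 2 of 66, Dnajc3 and Pdia6, whose sequences are shown with the element in capitals, Dnajc3 as the whole window and Pdia6 as 29 bases because its window overlaps annotated exons.
Dnajc3 (chr14:118937682-118937931, plus strand): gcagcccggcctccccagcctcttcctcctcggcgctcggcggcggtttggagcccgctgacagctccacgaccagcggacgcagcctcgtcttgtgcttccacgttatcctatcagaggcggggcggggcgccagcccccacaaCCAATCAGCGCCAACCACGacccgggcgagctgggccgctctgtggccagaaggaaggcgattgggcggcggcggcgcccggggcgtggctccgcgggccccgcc
Pdia6 (chr12:17266486-17266514, plus strand): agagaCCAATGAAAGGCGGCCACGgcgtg
Dnajc3 had 14.4, 15.5 and 15.8 FPKM in sleep and 28.8, 25.5 and 23.5 with Fxr1, without overlap.

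Of 19 cytosolic heat shock genes measured 1 rose with Fxr1, after 10 of 20 in enforced wake with GFP, and 3 rose with the GC trend removed. Among all genes 0.735%, 15.7% and 3.63% rose in these comparisons. The median of the list was 0.255, and 9 lay above sleep without overlap (11.5% of all genes did so). Chordc1, a co-chaperone of Hsp90, had 41.3, 42.6 and 41.6 FPKM in sleep and 113, 85.5 and 74.2 with Fxr1 (1.08, limma adjusted p = 0.0418). Hspa1a, an inducible Hsp70, had 1.35, 0.907 and 1.16 FPKM in sleep, 1.62, 1.82 and 1.7 with Fxr1 and 3.74, 3.6 and 3.63 in enforced wake with GFP. Its difference from sleep of 0.35 did not pass (limma adjusted p = 0.157), and it was lower than in enforced wake with GFP (log2 difference -0.78, limma adjusted p = 0.0366), but not with the GC trend removed (-0.05, limma adjusted p = 0.892). Hspa1a has a near-identical copy, Hspa1b, so the split of fragments between the pair is uncertain.

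Both cold-inducible RNA-binding protein genes measured, Rbm3 and Cirbp, fell in both wake groups. Rbm3 (chromosome X, 8138975 to 8145880) had 69.8, 108 and 82.9 FPKM in sleep, 32.5, 25.9 and 27.8 with Fxr1 and 30.7, 22.4 and 29 in enforced wake with GFP. The wake groups overlapped each other and neither overlapped sleep; Rbm3 fell by 1.55 with Fxr1 (SE 0.175, limma adjusted p = 0.0257). Cirbp, its close relative, had 45.2, 41 and 38.4 FPKM in sleep and 11.3, 16.7 and 18.2 with Fxr1. It fell by 1.40 (SE 0.18, limma adjusted p = 0.0328), and its Fxr1 libraries were all below the 20.4 to 21.9 FPKM of enforced wake with GFP, a difference of -0.44 that did not pass (limma adjusted p = 0.118; -0.09 with the GC trend removed).

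Splicing factors moved both ways. Of 21 SR proteins, splicing kinases and partners 2 rose and 1 fell with Fxr1, all 3 wake differences, and 1 of 20 hnRNP genes fell. Of all genes 0.735% rose and 0.522% fell with Fxr1. Srsf5 had 94.7, 102 and 92.9 FPKM in sleep, 51.8, 55.5 and 57 with Fxr1 and 46.6, 57.1 and 54.1 in enforced wake with GFP. It fell by 0.81 (SE 0.0827, limma adjusted p = 0.0198). Srsf10, a splicing factor known to respond to heat shock, rose from 11.6, 12.5 and 13.6 FPKM to 35, 26.1 and 25.5 (1.13, limma adjusted p = 0.0319). Luc7l, a partner of the U1 particle, had 12.3, 14 and 13.3 FPKM in sleep, 39.6, 37.3 and 35.6 with Fxr1 and 36.5, 19.3 and 34.6 in enforced wake with GFP. It rose by 1.44 (limma adjusted p = 0.0143), and by transcript the protein-coding Luc7l-202 rose from a mean of 1.57 to 36.2 FPKM while Luc7l-206, annotated as a target of nonsense-mediated decay, fell from 7.35 to 0.0247. In enforced wake with GFP Luc7l-202 had 35.2, 3.33 and 31.6 FPKM, so that 1 control library held the form of sleep. Hnrnpdl, an hnRNP whose protein represses its own messenger, had 70.6, 83.4 and 74.8 FPKM in sleep and 48, 36.6 and 42.8 with Fxr1 (-0.83, limma adjusted p = 0.0427). Over all transcripts, those annotated for nonsense-mediated decay were 4 of 32 that rose (12.5%) and 6 of 38 that fell (15.8%), against 4.78% of those tested.

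Clock genes, in which enforced wake with GFP had 9 of 22 higher and 4 lower, gave 1 higher and 2 lower with Fxr1, and only Dbp was a wake difference that remained. For all genes the shares were 15.7% and 12.7% with GFP, and 0.735% and 0.522% with Fxr1. Without Fxr1 library 1, and with the GC trend removed, 4 rose, and 2 and 3 fell. Of all genes 1.34% and 3.63% rose, and 1.21% and 2.3% fell, in these settings. Dbp, a transcription factor that is a direct target of the core clock, had 19.4, 16.8 and 16.8 FPKM in sleep, 5.23, 7.63 and 6.56 with Fxr1 and 9.92, 9.97 and 13.3 in enforced wake with GFP. It fell by 1.33 (SE 0.142, limma adjusted p = 0.0209), and the Fxr1 libraries were all below the wake libraries (-0.69, limma adjusted p = 0.0878; 0.14, of opposite sign, with the GC trend removed). Ciart, a repressor in the clock, had 9.7, 9.39 and 8.79 FPKM in sleep and 5.77, 5.43 and 5.03 with Fxr1 (-0.68, limma adjusted p = 0.0388; 0.0658 with the GC trend removed). Ciart was no wake difference in the control (limma adjusted p = 0.104), and its difference between wake with and without Fxr1 did not pass either (limma adjusted p = 0.0878). Per2, which rises with time awake, had 3.2, 3.3 and 3.62 FPKM in sleep and 5.28, 6.76 and 6.56 with Fxr1 and just did not pass (0.71, limma adjusted p = 0.0519).

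Genes that respond to glucocorticoids, the stress hormones of the adrenal, were 15 measured, of which 3 rose with Fxr1 and none fell (median 0.391), after 12 of 16 higher and 1 lower in enforced wake with GFP. Over all genes 0.735% rose with Fxr1, and 15.7% had risen and 12.7% had fallen with GFP. With the GC trend removed 9 rose, and 6 without Fxr1 library 1, against 3.63% and 1.34% of all genes. Fkbp5, a co-chaperone of the glucocorticoid receptor, had 7.98, 7.31 and 7.65 FPKM in sleep, 15.8, 17.9 and 20.7 with Fxr1 and 21.3, 19 and 20.1 in enforced wake with GFP. It rose by 1.14 (SE 0.117, limma adjusted p = 0.0198). Sult1a1 rose by 1.12 and Fam107a by 0.69 (limma adjusted p = 0.0198 and 0.0388). Sik2, of the salt-inducible kinase family studied for sleep need, was the 1 gene of 13 in its list that rose, from 7.18, 7.27 and 7.6 FPKM to 11.6, 12.3 and 13.1 (0.67, limma adjusted p = 0.0348). Crh, the corticotropin-releasing hormone, was the 1 of 14 neuropeptide genes that rose, from 1.95, 1.42 and 2.13 FPKM to 4.79, 4.53 and 4.52 (0.99, limma adjusted p = 0.031).

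**Figure D3:**
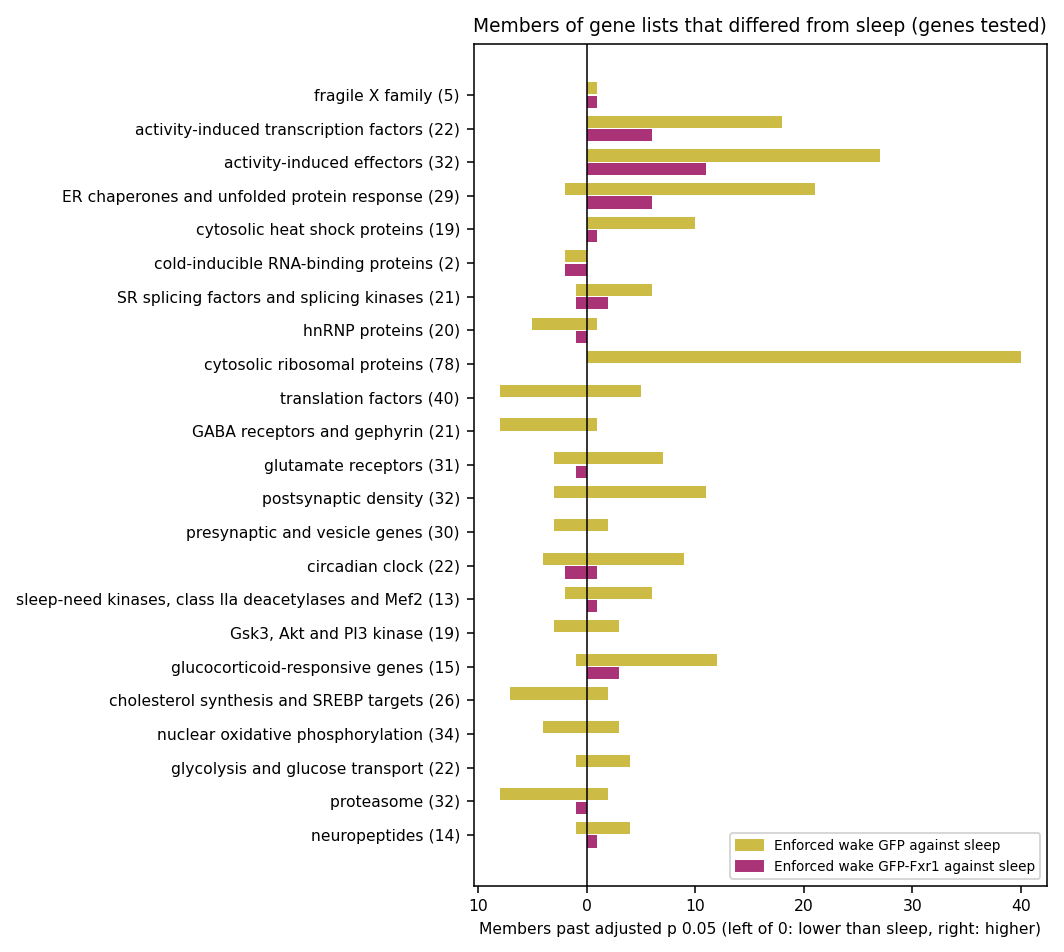
Number of members of each gene list that differed from sleep (limma adjusted p under 0.05), for enforced wake with GFP and enforced wake with GFP-Fxr1; bars to the right are higher and bars to the left lower, and the number of genes tested with Fxr1 stands in brackets. The activity-induced lists hold 6 and 11 members with Fxr1 and the endoplasmic reticulum list 6. The ribosomal protein list has 40 members with GFP and 0 with Fxr1. Over all genes the share that passed was 28.3% with GFP and 1.26% with Fxr1.

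For several groups no member passed against sleep with Fxr1. Of all genes only 1.26% passed with Fxr1, against 28.3% in enforced wake with GFP. A count of 0 in lists of this size is therefore near the share of all genes. Of 78 cytosolic ribosomal protein genes 40 had risen in enforced wake with GFP; with Fxr1 none passed, the median was -0.173 and 12 lay below sleep without overlap (21.2% of all genes did so), while with the GC trend removed the median was -0.00892 and 1 rose. Rplp1, a stalk protein of the large subunit, had 93.3, 83.6 and 100 FPKM in sleep, 60.8, 80.9 and 81.6 with Fxr1 and 153, 166 and 180 in enforced wake with GFP. It was the only one of the 78 that passed between the wake groups (-1.16, limma adjusted p = 0.0409; -0.34 and 0.155 with the GC trend removed). Of 40 translation factors, 21 genes of GABA receptors and gephyrin, 32 of the postsynaptic density and 30 presynaptic genes none passed, with medians of -0.111, -0.0232, -0.126 and -0.134. Among 31 glutamate receptor genes 1 fell, Grm3, a metabotropic receptor of neurons and astrocytes, from 57.9, 59.6 and 57.2 FPKM to 42.6, 38.6 and 38.5 (-0.54, limma adjusted p = 0.0427), next to 37.8 to 39.6 in enforced wake with GFP. Of 19 genes of Gsk3, Akt and PI3 kinase, the kinase pathway with Fxr1 among its substrates, none passed (median 0.0135).

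Metabolic lists gave no calls either, which for lists of this size is again near the 1.26% of all genes. None of 26 genes of cholesterol synthesis and SREBP targets passed, although the median was -0.389. Without overlap 14 of them (53.8%) lay below sleep, against 21.2% of all genes. Of the list 5 fell with the GC trend removed and 1 without Fxr1 library 1, against 2.3% and 1.21% of all genes. Tm7sf2, a sterol reductase, had 4.83, 5.23 and 4.84 FPKM in sleep and 1.47, 2.32 and 2.73 with Fxr1 (-0.93, limma adjusted p = 0.0619). Of 34 nuclear genes of oxidative phosphorylation, 22 of glycolysis and 31 of the interferon response none passed (medians -0.132, -0.277 and -0.0871). The 15 mitochondrially encoded genes had a median of 0.642 and none passed. They varied between libraries of a group: mt-Nd2 had 11, 13.6 and 9.71 FPKM in sleep and 34.3, 18.6 and 31.3 with Fxr1, and the enforced wake control had 11.3, 12.6 and 27. Of 32 proteasome genes only Psmf1, an inhibitor of the proteasome, fell.

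Psmf1, as a sum over its transcripts, was the one wake difference that passed further from sleep with Fxr1. It had 10.9, 10.5 and 11.2 FPKM in sleep, 8.57, 7.48 and 8.02 in enforced wake with GFP and 2.25, 3.43 and 3.5 with Fxr1, with no overlap between any of the groups. Its fall of 1.56 against sleep (SE 0.147, limma adjusted p = 0.0198) stood next to -0.40 in the control, and the wake groups differed by -1.17 (limma adjusted p = 0.0454). No Psmf1 transcript tested alone passed. Among other large falls Rassf3, a Ras association domain protein, had 14.4, 14 and 14 FPKM in sleep and 5.8, 6.31 and 6.38 with Fxr1 (-1.08, limma adjusted p = 0.0153), and Pla2g4e, a cytosolic phospholipase, 2.47, 2.25 and 2.12 and 0.571, 0.554 and 0.525 (-1.08, limma adjusted p = 0.0162). Among other large rises Cbln4, a secreted synapse organiser, had 2.83, 2.47 and 2.82 FPKM in sleep and 9.33, 8.81 and 7.8 with Fxr1 (1.38, limma adjusted p = 0.0153). Timp1, an inhibitor of metalloproteinases, lay at 0 to 0.328 FPKM in sleep and at 1.29 to 2.66 with Fxr1 (1.31, limma adjusted p = 0.0427). Its sleep values were all below the minimum of 0.5 FPKM, so Timp1 was tested only because its Fxr1 values were high. Dio2, which activates thyroid hormone and is known from astrocytes, had 8.56, 9.74 and 9.18 FPKM in sleep and 31.4, 20.3 and 19.9 with Fxr1 (1.26, limma adjusted p = 0.0422).

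Some of the largest wake differences did not pass with Fxr1. Of the 8 largest rises of enforced wake with GFP that have a proper symbol and no overlap, Rasd1 remained; Arc, Fosb, Fos, Junb, Rpph1, Nr4a1 and Nptx2 did not pass, although Arc, Fosb, Fos, Nr4a1 and Nptx2 passed with the GC trend removed. Of the 8 largest falls Rbm3, Hnrnpdl and Tipin remained and Mir8114, Rac1, Stard7, Rnf146 and Zbed6 did not pass. Rac1, a small GTPase that shapes the actin of dendritic spines (chromosome 5, 143503634 to 143528036), had 68.1, 67.8 and 68.4 FPKM in sleep, 69.4, 68.8 and 65.7 with Fxr1 and 19.5, 18.4 and 18.6 in enforced wake with GFP. With Fxr1 it overlapped sleep (difference -0.00, 95% interval -0.17 to 0.17, limma adjusted p = 0.979), and it was higher than in enforced wake with GFP by 1.80 (limma adjusted p = 0.00109), nearly all in Rac1-201. Rnf146, a ubiquitin ligase, had 57.3, 45.4 and 38 FPKM in sleep, 71.8, 41.4 and 47.2 with Fxr1 and 14.9, 15.1 and 14.9 in enforced wake with GFP (Fxr1 against sleep 0.16, 95% interval -0.41 to 0.74; against wake 1.73, limma adjusted p = 0.0375). By transcript, Rnf146-205 averaged 18 FPKM in sleep, 18.2 with Fxr1 and 0.00297 in enforced wake with GFP, but Rnf146-201 4.31, 3.71 and 10.2. Between the wake groups these differed by 4.22 and -1.25 (limma adjusted p = 0.00275 and 0.017). The Rnf146 sum thus joins transcript estimates that moved in opposite directions. Stard7, a lipid carrier of mitochondria, had 57.9, 63.4 and 56.4 FPKM in sleep and 64.5, 18.9 and 51.4 with Fxr1, with 18.7 to 20 in enforced wake with GFP: 1 Fxr1 library lay at the wake level and the others at that of sleep. Zbed6 (7.7, 0.553 and 3.22 FPKM with Fxr1) and Mir8114 (19.1, 46.6 and 0.0739) were also spread over the Fxr1 libraries, and a miRNA gene in a total RNA library need not show the mature miRNA.

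Further wake differences that did not pass against sleep differed between the wake groups. Mt1, a metallothionein induced by stress, had 37.1, 28.1 and 30.8 FPKM in sleep, 29.5, 35.8 and 35.6 with Fxr1 and 67.8, 70.5 and 82.8 in enforced wake with GFP (Fxr1 against wake -1.11, limma adjusted p = 0.0366). Tfrc, the transferrin receptor, had 47.9, 52 and 43 FPKM in sleep, 45, 46.1 and 46 with Fxr1 and 26.1, 28.6 and 28.2 in enforced wake with GFP (0.71, limma adjusted p = 0.0366; 0.146 with the GC trend removed). The replication-dependent histone gene Hist1h4a had 3.19, 2.69 and 3.04 FPKM in sleep, 0.638, 1.69 and 2.15 with Fxr1 and 8.87, 8.51 and 9.31 in enforced wake with GFP (-2.04 against wake, limma adjusted p = 0.0375). It was thus below sleep in every Fxr1 library, a difference of -0.72 that did not pass (limma adjusted p = 0.177). Histone H4 genes have near-identical coding sequences, so their separate values are uncertain.

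**Figure D4:**
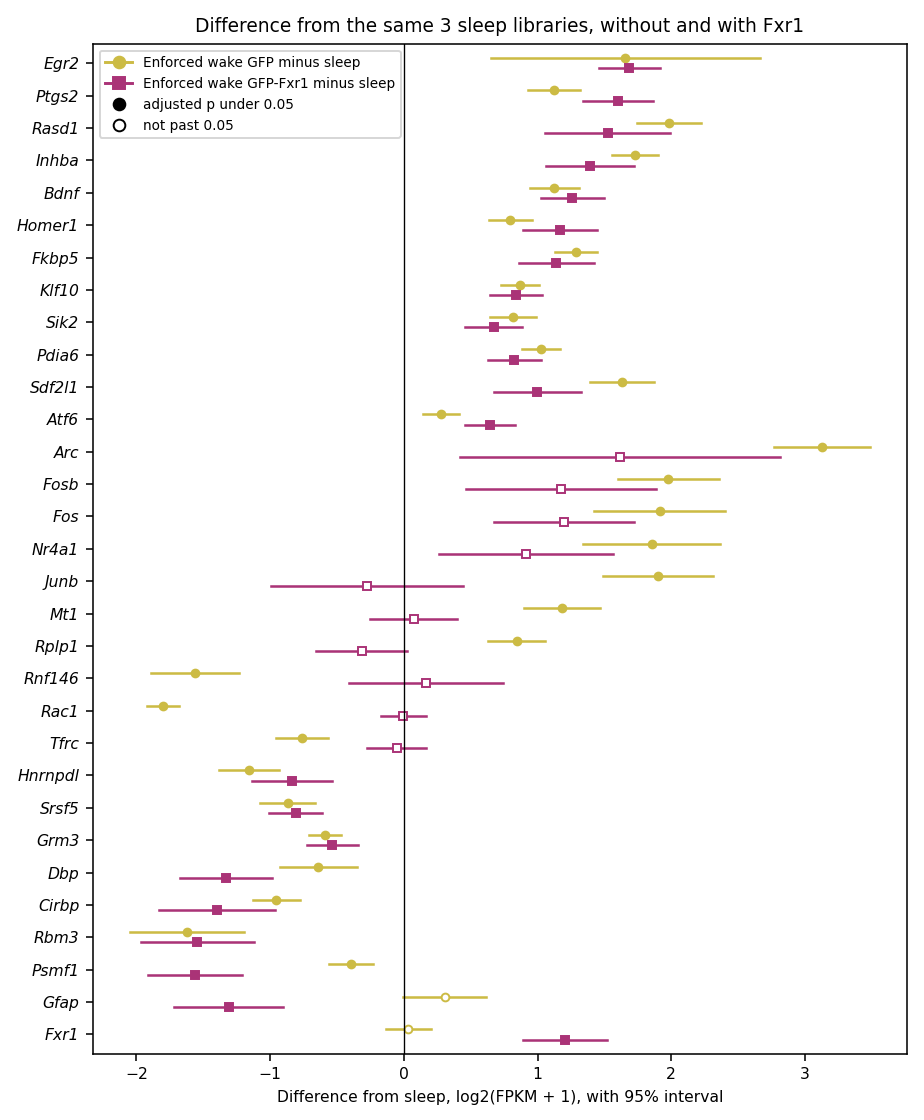
Difference from the same 3 sleep libraries on the log2(FPKM + 1) scale with 95% intervals, for 31 genes, in enforced wake with GFP (circles) and with GFP-Fxr1 (squares); filled symbols passed the limma adjusted p of 0.05. From Egr2 to Atf6 and from Hnrnpdl to Psmf1 both symbols are filled on the same side, from Arc to Tfrc the Fxr1 symbols are open, and Gfap and Fxr1 are filled with Fxr1 only.

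Of the 26 genes that passed with Fxr1 and were no wake differences, Gfap, the intermediate filament of astrocytes (chromosome 11, 102887336 to 102900912), had 29.7, 24.9 and 35 FPKM in sleep, 9.27, 12 and 13.1 with Fxr1 and 35.5, 34.1 and 41.2 in enforced wake with GFP. It fell by 1.31 against sleep (SE 0.169, limma adjusted p = 0.033) and was lower than in enforced wake with GFP (-1.62, limma adjusted p = 0.0245). Of 15 astrocyte markers Gfap fell and Gjb6, a gap junction protein, rose, from 9.83, 12.3 and 9.83 FPKM to 21, 18.9 and 22.6 (0.91, limma adjusted p = 0.0361), and the list's median was -0.298. Without overlap 7 of the 15 lay below sleep and 2 above, against 21.2% and 11.5% of all genes. Without Fxr1 library 1, 3 fell and 1 rose, against 1.21% and 1.34% of all genes. In bulk RNA fewer cells of a type and less RNA per cell cannot be told apart. Of 14 oligodendrocyte markers Opalin fell, from 1.51, 1.73 and 1.52 FPKM to 0.299, 0.505 and 0.487 (-0.86, limma adjusted p = 0.0263), as in enforced wake with GFP (0.362 to 0.473). No marker of microglia, precursors, endothelium, blood, meninges or neurons passed. The part of other cells in these results was not tested beyond these markers.

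Leaving aside provisional gene names, the largest rise was in Rn18s-rs5 (chromosome 17, 39846353 to 39848827), a gene model on a copy of 18S ribosomal RNA, with 4.37, 6.07 and 9.84 FPKM in sleep, 72.3, 205 and 84.2 with Fxr1 and 7.07, 7.88 and 5.91 in enforced wake with GFP. It rose by 3.87 (SE 0.44, limma adjusted p = 0.0257), and AY036118 on the same stretch (39847113 to 39848035) by 4.94 (limma adjusted p = 0.0338). Gm42418, on the other strand of this stretch (39846958 to 39848788), fell, from 30.9, 22.7 and 27.9 FPKM in sleep to 15, 14.8 and 14 with Fxr1. Its difference was -0.84 (limma adjusted p = 0.0427, and 0.292 with the GC trend removed). Gene models on 1 stretch share fragments, so their separate values are uncertain. Ube2l3, a ubiquitin-conjugating enzyme, and Tmem234 fell by 1.24 and 1.21 (limma adjusted p = 0.0153 and 0.0167), and in the enforced wake control 1 library sat at the sleep level for each. Ube2l3 had 18.8, 22.6 and 20.5 FPKM in sleep, 7.9, 8.43 and 8.06 with Fxr1 and 9.49, 9.46 and 19.7 in enforced wake with GFP. Tmem234 had 24.4, 24.8 and 25.1, then 9.83, 11.5 and 9.23, and 8.73, 7.83 and 24.5. By transcript, Tmem234-210, annotated as a target of nonsense-mediated decay, fell from a mean of 18.6 FPKM in sleep to 0 with Fxr1 (limma adjusted p = 0.0015). The protein-coding Tmem234-201 had means of 1.04 and 3.12 FPKM, a difference of 0.99 that did not pass (limma adjusted p = 0.225). The Tmem234 sum thus joins transcript estimates that moved in opposite directions. The small ribosomal RNA gene n-R5s156 fell by 1.29 (limma adjusted p = 0.0361; 0.145 with the GC trend removed).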

How the data were processed

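Transcript FPKM per library were deposited by the authors in 2 tables of 115220 transcripts, per the file headers, both with the same values for the enforced wake control. The submitters' processing notes name StringTie 1.3.4d, HISAT2 2.1.0, SAMtools 1.9 and build GRCm38. FPKM are relative to each library's total, so no count model was used. Transcripts were joined on their identifier, summed by gene symbol and put on the log2(FPKM + 1) scale; limma 3.58.1 (R 4.3.3) gave the tests (eBayes with trend, 2-sided, Benjamini-Hochberg, threshold 0.05), separately for each pair of groups, 3 libraries against 3. An exact permutation test could not give a p below 0.1. The log2 scale with a pseudocount of 1 understates changes of low genes. A gene below the minimum mean of 0.5 FPKM in 1 group could still be tested through the other group. The script was tested on simulated data.

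Genes were named by rule: Fxr1, Fxr2 and Fmr1, the 10 largest changes in each direction that passed without overlap, with provisional names excluded (Gm, Rik, numbers, accession-like or pseudogene names), the 8 largest of enforced wake in each direction, and up to 4 members of each of 35 gene lists with the smallest p; other names were chosen after their values were seen. The comparison, the rule and the lists were chosen with earlier results of these data known. For the GC trend, splines with 5 degrees of freedom of GC content and log length were subtracted in each library, which removes real changes that follow GC content too. The reported fit did not pair samples by replicate number, and whether these numbers mark pairs was not settled. Positions are from GENCODE vM21 and promoters from RefSeq (GRCm38.p6). The values of 1 gene of the clock list are not reported here.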

Additional observations from a re-analysis of the deposited data

Results flagged for a closer look

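For 5 wake differences among the genes named by rule, the wake effect with Fxr1 differed from that without it. This was the direct test of enforced wake with Fxr1 against enforced wake with GFP (limma, adjusted over all genes, all 3 libraries of 1 group beyond all 3 of the other). Further wake differences that passed this test, among them Mt1 and Tfrc, are given above. Rac1 was higher with Fxr1 by 1.797 on the log2(FPKM + 1) scale (adjusted p = 0.00109) and Rnf146 by 1.729 (adjusted p = 0.0375). The Rnf146 value sums transcript estimates that moved in opposite directions. Junb was lower, with a difference of -2.176 (adjusted p = 0.0375), as was Fos, with -0.7124 (adjusted p = 0.0443), and Psmf1, with -1.165 (adjusted p = 0.0454). With the GC trend removed Fos did not pass (-0.50, limma adjusted p = 0.105), while Rac1, Rnf146, Junb and Psmf1 did. Enforced wake with GFP also defined the wake differences, so a move towards sleep is in part built in. With 3 libraries a group, no gene was screened for a single outlying library.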

How the results depend on the processing

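The counts depend on the processing. Genes that passed (183 in the fit reported), and wake differences that remained (157), came to 1153 and 477 with all 9 libraries in 1 fit, 864 and 677 once the GC and length trend was removed, and 71 and 59 with no filter on low values. With array weights 4023 genes passed, 1735 remained and 208 passed in the opposite direction to their wake difference; 3 and 1 did so with all 9 libraries and with the GC trend removed. With an unadjusted p under 0.01 in both fits 573 remained. With the replicate block 0 genes, 0 remaining and 0 transcripts passed. The smallest limma adjusted p of a gene was 0.241, and 2084 genes passed at an unadjusted p under 0.05. Same-numbered sleep and Fxr1 libraries deviated from their group means with correlations of -0.26, -0.264 and 0.093. With 3 libraries a group these correlations cannot tell whether the numbers mark pairs. Leaving out 1 library of the fit gave 0 to 372 genes, 0 to 308 remaining and 19 to 89 transcripts (70 in the fit reported); the count of 0 followed from any sleep library or Fxr1 library 2. Transcripts came to 237 with all 9 libraries and 25 with no filter. With median-ratio scaling 127 of 173 genes were higher (73.4%, against 58.5%) and the median of all genes moved by 0.0609. In every setting but a minimum mean of 2 FPKM, which tested fewer of them, 181 to 183 of the 183 genes kept their sign. The settings reuse the libraries on which the genes were chosen, so the kept signs are no independent support. Of the 44 named genes that passed, 42 still passed with the GC trend removed, 40 with scaling, 44 without Fxr1 library 1 and 23 with no filter. None reversed, to which the same limit applies. Depth was only estimated from the values, so no counting intervals are given.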

Other observations

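The 5 receptor genes given here were picked after their values were seen, without a count of other receptors. The serotonin receptor genes Htr1b, Htr2a and Htr5b rose with Fxr1 against sleep: Htr1b had 2.98, 3.48 and 3.48 FPKM in sleep and 8.07, 7.23 and 7.4 with Fxr1 (log2 difference 0.99, limma adjusted p = 0.0198), with 5.53 to 6.4 in enforced wake with GFP. Htr2a had 19, 19 and 18.8 FPKM and then 28.2, 31.3 and 31.4 (0.65, limma adjusted p = 0.031; 0.0658 with the GC trend removed), with 23.4 to 25 in enforced wake with GFP. Htr5b lay at 0.126 to 0.218 FPKM in sleep and 0.772 to 0.977 with Fxr1 (0.68, limma adjusted p = 0.033). Its sleep values were all below the minimum of 0.5 FPKM, so Htr5b was tested only because its Fxr1 values were high. Hcrtr2, an orexin receptor, had 1.08, 1 and 1.01 FPKM in sleep and 2.33, 1.99 and 2.15 with Fxr1 (0.64, limma adjusted p = 0.039), and the melanocortin receptor Mc4r 0.731, 0.783 and 1.01 and 2.66, 2.27 and 3.14 (0.999, limma adjusted p = 0.0309). In Htr1b, Htr2a and Hcrtr2 every Fxr1 library was above every enforced wake control library; none of these differences passed (limma adjusted p = 0.098, 0.0878 and 0.0988), and with the GC trend removed that of Hcrtr2 was -0.05.

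Irs2, the insulin receptor substrate, had 7.51, 6.95 and 6.69 FPKM in sleep, 14.4, 15.6 and 16.5 with Fxr1 and 20.1 to 21.5 in enforced wake with GFP, and rose by 1.03 (limma adjusted p = 0.0198); its difference from enforced wake with GFP was -0.42, and 0.16 with the GC trend removed, and did not pass (limma adjusted p = 0.0878 and 0.496).

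By transcript, Dpp10-201, of an auxiliary subunit of potassium channels, rose from a mean of 5.88 FPKM in sleep to 37.3 with Fxr1 (limma adjusted p = 0.0262), at 8.14 in enforced wake with GFP. Larp4b-201, of an RNA-binding protein that stabilises messengers, fell from 28.1 to 8.69 FPKM (limma adjusted p = 0.00539), at 16.7 in enforced wake with GFP.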
